A study of Schizosaccharomyces pombe with 12 samples.

Results

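The prl rows of this fission yeast study are RNAs named for carrying a poly(A) tail and for lacking a long open reading frame ("poly(A)-bearing RNA"). They were taken as every row of the count files whose name is prl followed by a number, 55 of the 7013 rows that name a gene. RNA from Schizosaccharomyces pombe was sequenced in 4 groups of 3 libraries each: H3-G34R mutants, in which glycine 34 of histone H3 is arginine (G34R below), H3-G34V mutants, in which it is valine (G34V), Set2D mutants, which carry H3 WT and a change read here as a deletion of set2 (Set2D), and cells with H3 WT and no such change in their label (WT). All cultures grew overnight in rich YES medium at 25 °C, and all libraries were stranded and made from 2 µg of RNA after removal of ribosomal RNA, with no selection for poly(A) named, so the tail of a prl RNA was not measured. The labels name no strain background or mating type and do not say how many H3 genes carry the change. They also do not say whether replicates are separate cultures, so p-values measure the spread between libraries, which may be technical.

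Set2 travels with elongating RNA polymerase II and methylates lysine 36 of histone H3, a few residues from glycine 34. The mark recruits the Clr6 complex II histone deacetylase, which keeps transcription from starting inside genes and on their antisense strand. Noncoding RNAs made in this way, and those made at divergent promoters, are usually short-lived, because the nuclear exosome and its helpers degrade them.

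Most prl RNAs found in the later annotation have a divergent coding gene as their nearest one upstream. In the later build ASM294v3, 50 of the 55 names were found: 17 RNAs ran antisense to a coding gene, 13 antisense to another noncoding RNA, 9 overlapped no other gene, 9 overlapped a gene on the same strand, and 2 (prl46 and prl65) are now annotated as coding for a protein. The nearest coding gene upstream was divergent, that is transcribed away from the RNA, for 44 of the 50 (88%), against 512 of 741 SPNCRNA noncoding rows (69.1%) and 2770 of 5112 coding genes (54.2%). It was sought at any distance, and a coding gene that overlaps the RNA was passed over, so divergent does not mean adjacent. The later annotation served for names and arrangement, and no position from it is given because the counts were made on build ASM294v2.

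Of the 55 rows, 35 had enough counts to be tested, among 6602 tested rows in all. Another 16 held 0 counts in every library, and prl2, prl11, prl38 and prl39 held 6, 2, 15 and 2 counts over the 12 libraries. Rows at 0 often shared their place with another row: 10 of the 16 overlapped a gene on the same strand or stand in the later annotation under a name that has a row of its own in the files, against 3 of the 39 rows with counts. HTSeq leaves reads that fit 2 overlapping features uncounted (2.08 to 2.16% of reads per library), so a row at 0 does not show that its RNA was absent. prl11 has an identical stretch of 173 bases elsewhere in the genome, and reads with several alignments were also left out of the gene rows. A count of 0 allows up to 3 counts, 0.0134 to 0.046 CPM (counts per 1000000 counts in genes, scaled with edgeR's TMM factors) depending on the library, counting error only.

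Libraries held 65797517 to 228726069 counts in genes, and replicates correlated at 0.997 to 0.999 across genes on the log scale. The set2 gene itself stood at 3.92 ± 0.391 CPM in Set2D (SD, n = 3), against 128 ± 5.28 CPM in WT. Every value in the file of Set2D replicate 3 was even, while 48.4 to 50.6% were even in the other files, and the sources used here do not explain it.

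The prl RNAs were scarce, and a few took most of their reads. In WT, the 5 most counted rows were prl58, prl1, prl10, prl65 and prl15, and they took 58.6% of the summed prl CPM. prl58 alone took 17.8%, at 29.7, 31.8 and 29.1 CPM in the 3 WT libraries. Per length it was also the highest of the 32 tested rows with a known length in WT, at 67.5 CPM per kb, followed by prl59 at 25.2 and prl65 at 23.9 CPM per kb. Of the 35 tested rows, 21 averaged at least 1 CPM over the 12 libraries and 14 less. The 35 tested rows include prl12, prl16 and prl53, which lay below the filter's level of 0.0625 CPM in all libraries of at least 1 group.

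Summed over all 55 rows, prl RNAs stood at 198 to 203 CPM in G34R libraries, 186 to 191 CPM in G34V libraries, 224 to 232 CPM in Set2D libraries and 166 to 175 CPM in WT libraries. No mutant library overlapped the WT libraries. Much of the excess in Set2D was 1 RNA: without prl61 the means were 199 CPM in G34R, 186 CPM in G34V, 196 CPM in Set2D and 168 CPM in WT. These are shares of each library, so more of these RNAs per cell and less of all other RNA cannot be told apart.

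In G34R, the prl RNAs that were called against WT all rose, while 18 were not called, and the lowest estimate was -0.19 on the log2 scale. At an adjusted p under 0.05 (edgeR's quasi-likelihood test, Benjamini-Hochberg adjustment over all 6602 rows), 17 of the 35 rose and none fell against WT. The background share of all tested rows was 26.8% higher and 26.6% lower. The median log2 fold change of the prl RNAs was 0.30, against 0.00 over all rows, and 3 of them rose at least 2-fold (0.636% of all rows did). The 3 were prl66, prl27 and prl53, and only prl66 reached 1 CPM in G34R or WT. Without WT replicate 1 the counts were 17 higher and 1 lower (23.7% and 22.8% of all rows).

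In G34V, 11 of the 35 rose and 5 fell against WT, where 25.1% of all rows were called higher and 25% lower. The share that rose was thus near the background in this mutant, the share that fell below it, and the median log2 fold change was 0.11. These counts leaned on single libraries. Without WT replicate 2 they were 7 higher and 3 lower (22.2% and 21.3% of all rows). Without WT replicate 3 only 2 were lower (22.7% of all rows), and without G34V replicate 1 only 3 were (23.4%). No prl RNA changed 2-fold in G34V, where 0.788% of all rows rose and 0.273% fell by that much.

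In Set2D, 16 of the 35 rose and 7 fell against WT, beside 34.5% of all rows higher and 35.6% lower. The median log2 fold change was 0.19. The single changes were larger here: 4 prl RNAs rose at least 2-fold, as did 5.54% of all rows, and the log2 fold changes ran from -0.80 for prl50 to 4.58 for prl61. Of these 4 RNAs (prl61, prl37, prl51 and prl5), only prl61 reached 1 CPM in Set2D or WT.

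**Figure D1:**
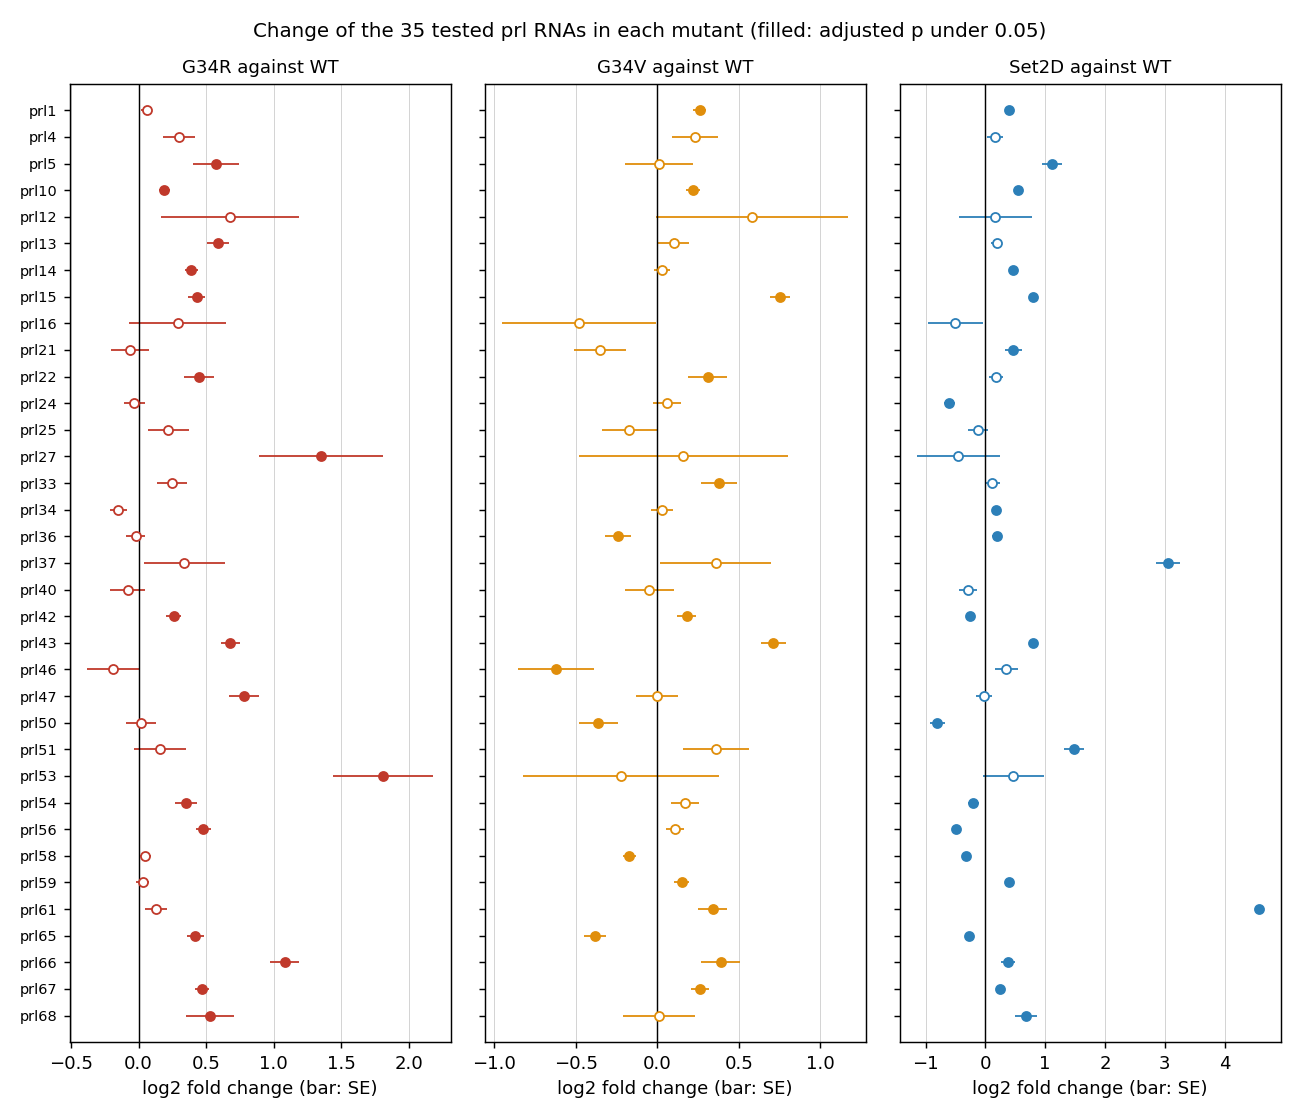
Log2 fold change of the 35 tested prl RNAs in G34R, G34V and Set2D against WT (points, 1 row per RNA; bars, SE; filled points have an adjusted p under 0.05; each panel has its own horizontal scale). All 17 filled points in the G34R panel lie right of 0, while the G34V panel has 5 and the Set2D panel 7 filled points left of 0, and prl61 stands far from the rest at 4.58 in Set2D.

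Other noncoding rows give a scale for these shares. In G34R, 48.6% of tested prl RNAs and 46.1% of the 671 tested SPNCRNA rows rose. In G34V the shares were 31.4% and 38%, and in Set2D 45.7% and 48.3%. Rows named as the antisense RNA of a gene rose more often in each mutant, in 72% of 617 tested rows in G34R, 61.4% in G34V and 77.6% in Set2D. Among the 5279 other tested rows, mostly coding genes, 19%, 19.2% and 27.6% rose in G34R, G34V and Set2D. The share of prl RNAs that fell was 0% in G34R, 14.3% in G34V and 20% in Set2D, against 7.3%, 9.39% and 19.4% of SPNCRNA rows. These differences between classes were not tested.

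**Figure D2:**
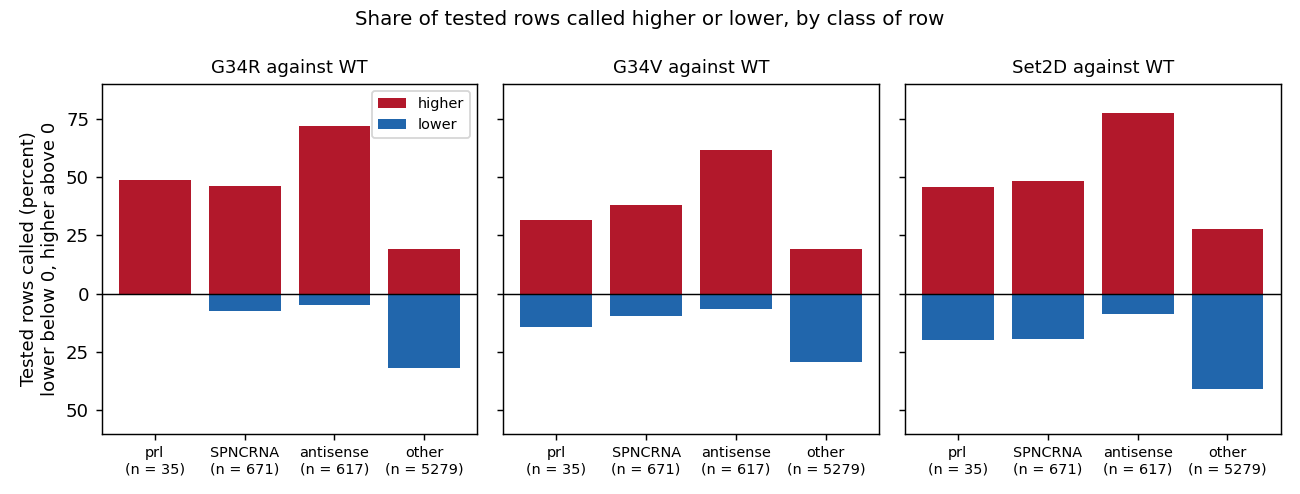
Percent of tested rows called higher (red, above 0) or lower (blue, below 0) against WT in G34R, G34V and Set2D, for prl RNAs, SPNCRNA rows, antisense RNA rows and all other rows, with the number tested under each bar. The prl bars stand close to the SPNCRNA bars in each panel (48.6% and 46.1% higher in G34R), and no prl RNA was lower in G34R.

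By place in the genome, of the 16 tested RNAs antisense to a coding gene, 11 rose in G34R, 5 in G34V and 6 in Set2D, and 3 fell in Set2D. Of all rows, 26.8% rose in G34R, 25.1% in G34V and 34.5% in Set2D. The counts that rose in G34V and Set2D are thus near the background. The shares of all rows that fell were 26.6% in G34R, 25% in G34V and 35.6% in Set2D, and the counts below are to be read against both. Of the 6 tested RNAs that overlap no gene, none was called in G34R, 1 rose and 2 fell in G34V, and 2 rose and 3 fell in Set2D. Of the 7 tested RNAs antisense to a noncoding RNA, 2 rose in G34R, 2 rose and 1 fell in G34V, and 5 rose in Set2D. These groups are small, and the difference between them was not tested.

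Against WT, divergent coding neighbours were called opposite to called prl RNAs more often than alike. Between mutants they were not. Of 29 tested RNAs with a divergent coding neighbour, 14 were called in G34R against WT: the neighbour was called in the opposite direction for 8, in the same direction for none, and not called for 6. In G34V 12 were called, with 4 opposite, 2 the same and 6 not called, and in Set2D 18 were called, with 9 opposite, 3 the same and 6 not called. Between mutants the split was different: 2 opposite and 6 the same for G34R against G34V, 5 opposite and 10 the same for G34R against Set2D, and 3 opposite and 3 the same for G34V against Set2D. In either direction, 53.4% of all rows were called in G34R, 50.1% in G34V and 70.1% in Set2D against WT. Between mutants, 25.2% of all rows were higher and 25.3% lower for G34R against G34V. These shares were 34% and 35.4% for G34R against Set2D, and 29.6% and 32.8% for G34V against Set2D. Rows other than noncoding RNAs were called lower more often than higher in each mutant against WT (31.7% and 19% in G34R). Every called prl RNA in G34R was higher. Whether the opposite calls are particular to these pairs was not tested. Beside prl RNAs that were not called in G34R, the neighbour was called for 9 and not called for 6.

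For the 16 tested RNAs antisense to a coding gene, the gene on the other strand was opposite for 4 and the same for 2 of 11 called RNAs in G34R, opposite for 2 and the same for 1 of 5 in G34V, and opposite for 4 and the same for 4 of 9 in Set2D. Between mutants it was opposite for 2 and the same for 3 in G34R against G34V, opposite for 4 and the same for 5 in G34R against Set2D, and opposite for 3 and the same for 2 in G34V against Set2D. Of all rows, 53.4% were called in G34R, 50.1% in G34V and 70.1% in Set2D against WT, in either direction. For G34R against G34V, 25.2% of all rows were higher and 25.3% lower. The same shares were 34% and 35.4% for G34R against Set2D, and 29.6% and 32.8% for G34V against Set2D. Whether the splits differ from these shares was not tested. Carry-over between strands was not tested. prl39 lies antisense to SPBC32F12.10 (phosphoglucomutase), which had 922403 counts over the 12 libraries, and prl39 had 2. Reads that fit 2 overlapping features were left uncounted, and the counting options are not known, so this 1 pair does not measure carry-over.

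prl61 showed the largest change of all prl RNAs. It lies antisense to SPAC186.07c, annotated as a hydroxyacid dehydrogenase. It stood at 1.36, 1.57 and 1.59 CPM in G34R, 1.69, 1.86 and 1.83 CPM in G34V, 35.6, 33.7 and 31.4 CPM in Set2D, and 1.39, 1.31 and 1.47 CPM in WT. All Set2D libraries were far above every other library, and the G34V libraries were above those of WT. Mutant and WT libraries did not overlap for 4118 of all 6602 tested rows in G34R, 3822 in G34V and 4749 in Set2D. Lack of overlap was also a condition for naming RNAs by the size of their change. Where it is given for such RNAs, here and below, it is a description and adds no support. The rise was 24.0-fold in Set2D (log2 fold change 4.58, SE 0.067, adjusted p = 3.6e-17) and 0.34 on the log2 scale in G34V (SE 0.09, adjusted p = 0.0054), and it was not called in G34R (0.13). Per length, prl61 at 75.7 CPM per kb passed prl58 at 53.7 CPM per kb in Set2D, and was the highest of the 32 rows with a known length there.

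The coding genes around prl61 also rose in Set2D. SPAC186.07c on the other strand averaged 4.33 ± 0.478 CPM in Set2D and 0.625 ± 0.0122 CPM in WT (log2 fold change 2.78, SE 0.1). SPAC186.08c, an L-lactate dehydrogenase and the convergent neighbour, averaged 11.6 ± 0.69 CPM in Set2D and 0.878 ± 0.16 CPM in WT (3.73, SE 0.099). SPAC186.06, an isomerase upstream in the same orientation, averaged 47.6 ± 1.99 CPM in Set2D and 22.2 ± 1.08 CPM in WT (1.10, SE 0.043). In the G34 mutants these genes moved less and not all one way. On the log2 scale SPAC186.08c fell by 0.52 in G34R and by 0.51 in G34V, SPAC186.07c fell by 0.72 in G34V, and SPAC186.06 fell by 0.31 in G34R and rose by 0.42 in G34V.

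A second RNA of this kind is prl37, named after its values were seen because it is under 1 CPM. It stood at 0.446, 0.489 and 0.534 CPM in Set2D, against 0.064, 0.0628 and 0.0535 CPM in WT, with no overlap (log2 fold change 3.06, SE 0.2, adjusted p = 2.1e-09, edgeR's quasi-likelihood test). It was not called in G34R (0.34) or G34V (0.36). Its upstream neighbour SPAPJ695.02, an uncharacterised gene, averaged 60.5 ± 2.55 CPM in Set2D and 5.72 ± 0.373 CPM in WT, a log2 fold change of 3.40. SPAC977.17, a MIP family protein (the aquaporin family) at its other end, rose by 1.86 on the log2 scale. Neither prl61, prl37 nor these neighbours had a second match of at least 100 bases at 90% identity in the genome of build ASM294v3.

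**Figure D3:**
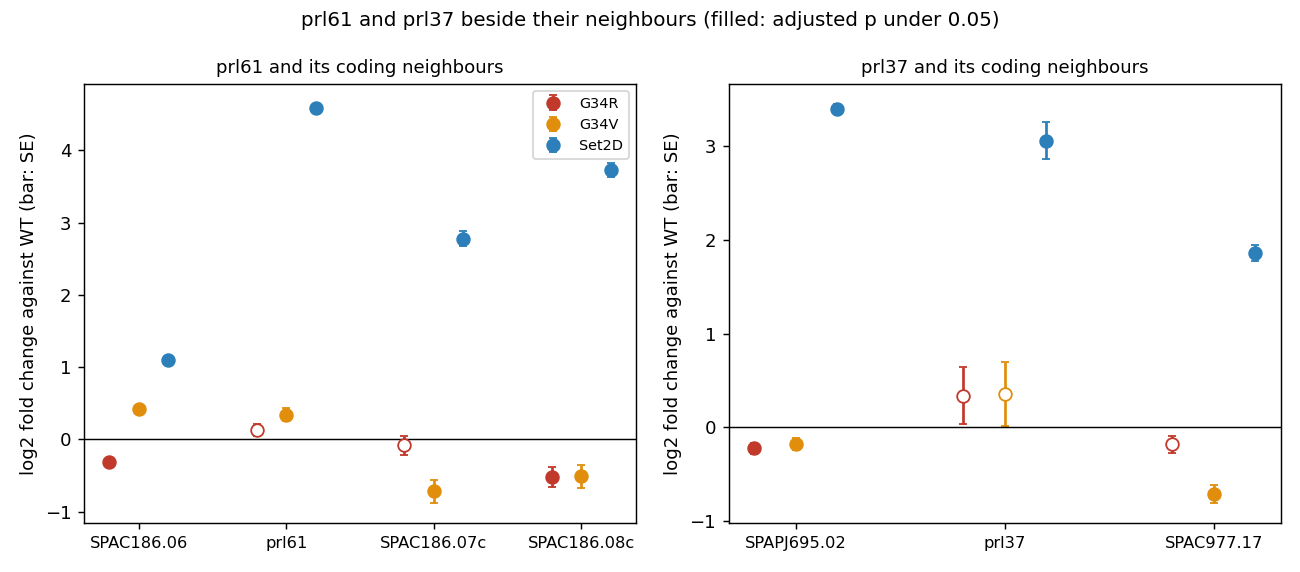
Log2 fold change against WT of prl61 (left) and prl37 (right) and of the coding genes beside or opposite them, in G34R (red), G34V (orange) and Set2D (blue); bars are SE and filled points have an adjusted p under 0.05. In Set2D each gene of both groups lies above 1 on the log2 scale, with prl61 at 4.58 and prl37 at 3.06, while no G34R or G34V point exceeds 0.42.

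Of the other RNAs under 1 CPM, named after their values were seen, prl51 stood at 0.798, 0.749 and 0.691 CPM in Set2D, against 0.262, 0.232 and 0.285 CPM in WT (log2 fold change 1.48, SE 0.17, adjusted p = 9.9e-07 by edgeR). Set2D and WT did not overlap for prl51, and it was not called in either G34 mutant. prl5, antisense to the coding gene mug121, stood at 0.453, 0.336 and 0.458 CPM in G34R, 0.54, 0.624 and 0.617 CPM in Set2D, and 0.249, 0.251 and 0.317 CPM in WT. Both mutants lay above all WT libraries, by 0.57 (SE 0.17) in G34R and 1.11 (SE 0.17) in Set2D on the log2 scale. The G34R call of prl5 was lost without G34R replicate 3 (0.45, adjusted p = 0.069 by edgeR).

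Of the 35 tested RNAs, 5 rose in each of the 3 mutants. The share of all rows that did so is not given here, so this count has no background beside it. The 3 comparisons share the WT libraries, so each mutant's own values are given side by side. prl15, antisense to SPBC27B12.05 (the WD repeat protein Crt10), stood at 18.6, 17.5 and 19.5 CPM in G34R, 22, 23.2 and 24.1 CPM in G34V, 23.2, 24.8 and 23.4 CPM in Set2D, and 13.2, 15.3 and 12.8 CPM in WT. All mutant libraries were above all WT libraries, and G34R lay below the other mutants. The log2 fold changes were 0.43 (SE 0.061) in G34R, 0.75 (SE 0.062) in G34V and 0.79 (SE 0.062) in Set2D.

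The genes around prl15 went the other way. SPBC27B12.05 fell by 0.23 in G34V and by 0.42 in Set2D on the log2 scale, and was not called in G34R (-0.04). gpi13, the divergent neighbour and an enzyme of GPI anchor synthesis, fell by 0.14 in G34R, 0.19 in G34V and 0.27 in Set2D. In CPM, not per length, prl15 was 46.4% of its antisense partner in G34R, 65.8% in G34V, 77.3% in Set2D and 33.4% in WT.

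prl43, antisense to drc1, which is needed to start DNA replication, stood at 4.32, 4.83 and 4.84 CPM in G34R, 4.51, 5.01 and 4.99 CPM in G34V, 5.01, 5.12 and 5.14 CPM in Set2D, and 2.59, 3.15 and 3.05 CPM in WT. G34R and G34V overlapped each other, Set2D was at or above both, and all lay above WT, with log2 fold changes of 0.68 (SE 0.073) in G34R, 0.71 (SE 0.077) in G34V and 0.80 (SE 0.075) in Set2D. Differences between the mutants were not called, with estimates of -0.03 (SE 0.074) for G34R against G34V, -0.12 (SE 0.072) for G34R against Set2D and -0.09 (SE 0.076) for G34V against Set2D. drc1 did not move as one: it fell by 0.11 in G34R, was not called in G34V (-0.04), and rose by 0.24 in Set2D. tom70, the divergent neighbour that encodes a mitochondrial import receptor, fell by 0.11 in G34R and 0.25 in Set2D.

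prl10 and prl67, both without a match in the later annotation, rose in each mutant by smaller amounts. The log2 fold changes of prl10 were 0.19 (SE 0.041) in G34R, 0.22 (SE 0.043) in G34V and 0.55 (SE 0.042) in Set2D. prl67 rose by 0.47 (SE 0.053) in G34R, 0.26 (SE 0.056) in G34V and 0.25 (SE 0.055) in Set2D. prl1, also unmatched, rose by 0.26 (SE 0.04) in G34V and 0.39 (SE 0.039) in Set2D, and was not called in G34R (0.06).

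prl66 had the largest rise in G34R among RNAs of at least 1 CPM. It lies antisense to the noncoding RNA SPNCRNA.1369 and divergent from sec61, the gene for the pore subunit of the ER translocon. It stood at 2.63, 3.3 and 3.17 CPM in G34R, 1.9, 1.55 and 2.38 CPM in G34V, 1.85, 1.82 and 1.98 CPM in Set2D, and 1.48, 1.38 and 1.49 CPM in WT. The G34R libraries were above all others, and the G34V and Set2D libraries lay between them and WT. The log2 fold change was 1.08 (SE 0.11, adjusted p = 1.1e-06) in G34R, and G34R exceeded both G34V and Set2D by 0.69 (SE 0.11 each).

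The smaller rises of prl66 hung on single libraries. In G34V it was 0.39 (adjusted p = 0.016 by edgeR), with 0.052 without WT replicate 2, 0.05 without G34V replicate 1 and 0.07 without G34V replicate 3. In Set2D it was 0.38 (adjusted p = 0.01), with 0.059 without Set2D replicate 3. SPNCRNA.1369 was not called in G34R (-0.03), while sec61 fell by 0.07 in G34R, 0.10 in G34V and 0.19 in Set2D.

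prl47 rose in G34R and was higher there than in either other mutant. It lies antisense to SPAC24H6.01c, an acyltransferase gene. It stood at 1.04, 1.21 and 1.27 CPM in G34R, 0.693, 0.798 and 0.552 CPM in G34V, 0.657, 0.728 and 0.67 CPM in Set2D, and 0.691, 0.722 and 0.669 CPM in WT. G34R lay above all other libraries, which overlapped one another. prl47 reached 1 CPM in G34R alone, and averaged less than that over the 12 libraries. The log2 fold change of G34R was 0.78 (SE 0.11) against WT, 0.78 (SE 0.12) against G34V and 0.80 (SE 0.12) against Set2D, each with an adjusted p of at most 0.0001 by edgeR's quasi-likelihood test. SPAC24H6.01c was not called in G34R (-0.01) and fell by 0.17 in G34V and by 0.42 in Set2D.

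prl13, antisense to the eIF2B delta subunit gene tif224, was likewise higher in G34R, at 2.06, 2.37 and 2.46 CPM in G34R, against 1.52, 1.58 and 1.52 CPM in WT. The rise of 0.59 in G34R (SE 0.082, adjusted p = 2.5e-05 by edgeR) was also a difference of 0.49 (SE 0.089) against G34V and 0.40 (SE 0.086) against Set2D. prl14, antisense to the splicing factor gene SPAC1486.03c, rose by 0.39 (SE 0.048) in G34R and 0.46 (SE 0.049) in Set2D, and was not called in G34V (0.03, SE 0.051). G34V was below G34R (G34R against G34V 0.36) and below Set2D (-0.44) for prl14. prl14 has 30 other matches in the genome of at least 100 bases at 90% identity, the longest 280 bases, and prl42 has 2, so their counts may miss or share reads with copies. Of the 32 tested and matched RNAs, no other had such a match.

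Some RNAs rose in 1 mutant and fell in another. prl56, antisense to SPACUNK4.13c, the NTPase gene ylf2, stood at 7.28, 6.58 and 6.79 CPM in G34R, 5.31, 5.5 and 4.97 CPM in G34V, 3.31, 3.48 and 3.61 CPM in Set2D, and 4.99, 4.84 and 4.88 CPM in WT. G34R lay above WT and Set2D below it without overlap, while G34V touched the WT range. The log2 fold change was 0.48 (SE 0.053) in G34R and -0.49 (SE 0.059) in Set2D, and G34R against Set2D differed by 0.97 (SE 0.058, adjusted p = 6.6e-10 by edgeR). G34V was not called against WT (0.11, SE 0.057). iph1, the divergent neighbour, fell by 0.07 in G34R, 0.30 in G34V and 0.34 in Set2D.

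prl65, now annotated as coding and next to the ribosome biogenesis gene imp4, stood at 19, 21 and 17.1 CPM in G34R, 11.1, 10.8 and 11 CPM in G34V, 12.6, 11.4 and 11.7 CPM in Set2D, and 14, 14.9 and 13.9 CPM in WT. G34R lay above WT and both other mutants below it, without overlap. It rose by 0.42 (SE 0.061) in G34R and fell by 0.38 (SE 0.066) in G34V and by 0.27 (SE 0.065) in Set2D on the log2 scale. G34R against G34V was 0.80 (SE 0.065, adjusted p = 2.5e-07 by edgeR), the largest difference between the 2 G34 mutants among prl RNAs of at least 1 CPM. imp4 was not called in G34R (-0.01) or G34V (0.08). prl46, the other RNA now annotated as coding, is under 1 CPM and was named after its values were seen. It fell by 0.62 in G34V (SE 0.23, adjusted p = 0.039 by edgeR), where the libraries held 26, 17 and 10 counts.

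prl42, antisense to the uncharacterised gene SPBC337.02c, rose by 0.26 (SE 0.056) in G34R and 0.18 (SE 0.06) in G34V and fell by 0.26 (SE 0.061) in Set2D. Its rise in G34V was lost without WT replicate 2 (adjusted p = 0.058) or G34V replicate 3 (0.06). prl54, antisense to the DNA damage checkpoint gene hus1, rose by 0.35 (SE 0.079) in G34R. Its fall in Set2D (-0.20, SE 0.087, adjusted p = 0.048 by edgeR) was lost under each other scaling, with DESeq2, and without WT replicate 1 or 2, G34R replicate 3, G34V replicate 2 or 3, or any Set2D replicate, with adjusted p up to 0.17. prl36 fell by 0.24 in G34V (SE 0.077) and rose by 0.19 in Set2D (SE 0.072). The G34V call of prl36 was lost without WT replicate 3 (adjusted p = 0.079) or G34V replicate 2 (0.076), and the Set2D call without WT replicate 1 (0.06), WT replicate 2 (0.082) or Set2D replicate 2 (0.12).

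**Figure D4:**
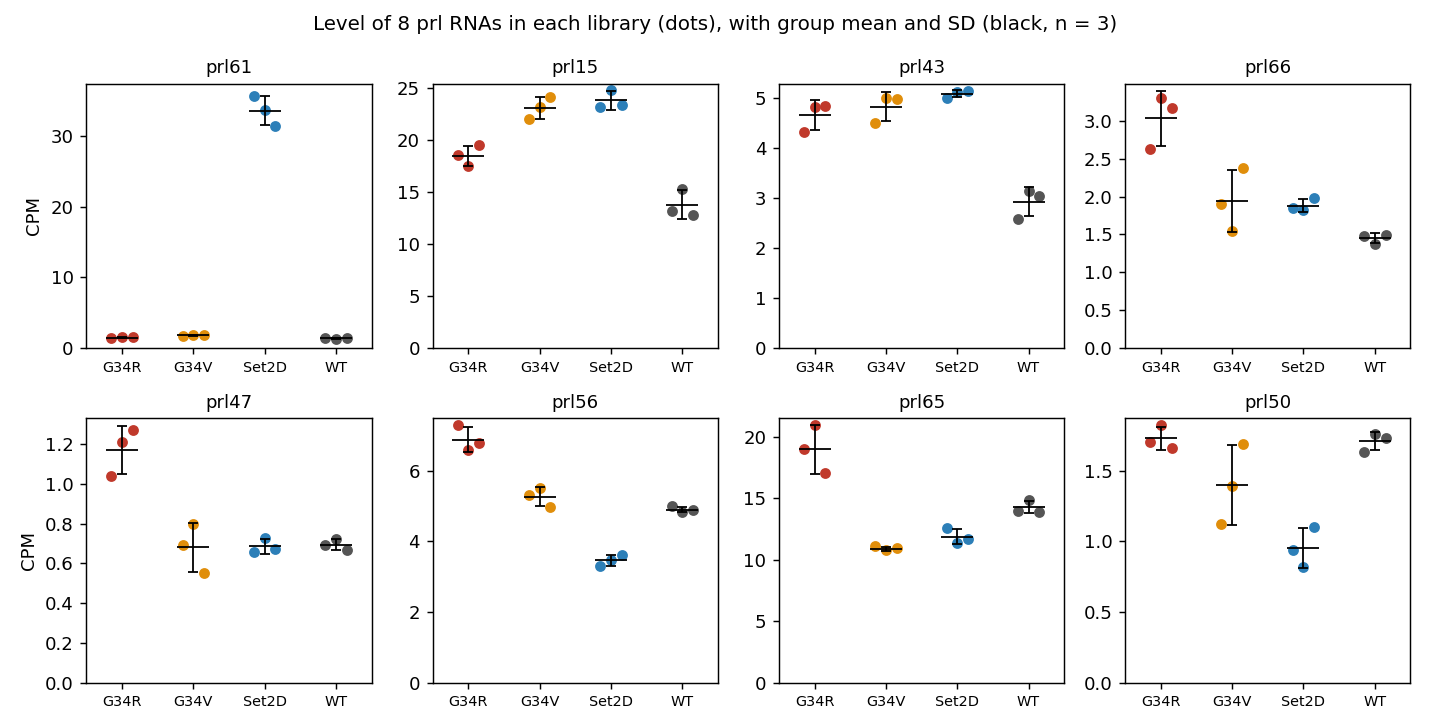
CPM of 8 prl RNAs in each library (dots), with group mean and SD (black, n = 3), for G34R, G34V, Set2D and WT; each panel has its own axis from 0. prl61 stands at 31.4 to 35.6 CPM in Set2D and under 2 CPM elsewhere, prl15 and prl43 lie above WT in each mutant, prl66 and prl47 are highest in G34R, prl56 and prl65 lie above WT in G34R and below it in Set2D, and prl50 is lowest in Set2D.

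Among RNAs that fell, prl50 had the largest change. It overlaps no gene and lies divergent from meu13, a gene of meiotic recombination. It stood at 1.7, 1.82 and 1.66 CPM in G34R, 1.12, 1.39 and 1.69 CPM in G34V, 0.938, 0.822 and 1.1 CPM in Set2D, and 1.63, 1.76 and 1.73 CPM in WT. Set2D lay below all libraries of the other groups, the G34V libraries spread widely, and G34R overlapped WT. prl50 fell by 0.80 in Set2D (SE 0.13, adjusted p = 4e-05) and by 0.36 in G34V (SE 0.12, adjusted p = 0.026, edgeR's quasi-likelihood test).

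The fall of prl50 in G34V was lost without WT replicate 2 (adjusted p = 0.068), WT replicate 3 (0.061) or G34V replicate 1, which left -0.17 (0.27). In G34R it was not called (0.02). meu13 fell with it, by 0.58 (SE 0.09) in G34V and by 0.75 (SE 0.09) in Set2D, and was not called in G34R (0.13). It averaged 2.07 CPM in G34V, 1.82 CPM in Set2D and 3.04 CPM in WT.

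prl24, between SPBC11B10.08 and ivn1, stood at 2.1, 2.59 and 2.02 CPM in Set2D, against 3.22, 3.35 and 3.44 CPM in WT. It fell by 0.60 in Set2D (SE 0.09, adjusted p = 2.3e-05 by edgeR), with no overlap, while its divergent neighbour SPBC11B10.08 was not called (0.01). prl58, the most abundant prl RNA in WT, lies divergent from the inositol transporter gene itr2. It stood at 26.7, 25.5 and 28.5 CPM in G34V, 24.3, 23.9 and 23.8 CPM in Set2D, and 29.7, 31.8 and 29.1 CPM in WT. It fell by 0.17 (SE 0.042) in G34V and by 0.33 (SE 0.042) in Set2D, with no overlap, and was not called in G34R (0.05). itr2 fell by 0.07 in G34V and 0.14 in Set2D.

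prl33 and prl34 gave weak calls. prl33 rose by 0.38 in G34V (SE 0.11, adjusted p = 0.013), which was lost without WT replicate 2 (0.055) or G34V replicate 2 (0.061). prl34, antisense to the transporter gene SPBC36.01c, rose by 0.18 in Set2D (SE 0.065, adjusted p = 0.024), which was lost without WT replicate 1 (0.098), Set2D replicate 1 (0.086) or Set2D replicate 3 (0.069). These p-values are edgeR's, adjusted by Benjamini-Hochberg.

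Among the rarest tested RNAs, prl53, which overlaps SPAC27E2.11c on the same strand, rose in G34R, at 0.176, 0.195 and 0.13 CPM, against 0.0192, 0.0754 and 0.0446 CPM in WT. The log2 fold change was 1.81 (SE 0.37, adjusted p = 0.00075 by edgeR), and the lowest WT library held 3 counts. prl27, antisense to the corepressor gene tup11, rose by 1.35 in G34R (SE 0.46, adjusted p = 0.021), a call lost without WT replicate 2 (0.067), WT replicate 3 (0.11) or G34R replicate 3 (0.087), and with DESeq2 (0.056). Both were named after their values were seen. Precision differed with level: the median SE of the log2 fold change against WT in G34R was 0.063 for the 21 RNAs of at least 1 CPM and 0.18 for the 14 rarer ones.

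The remaining called RNAs were prl21, prl22, prl59 and prl68, named after their values were seen. On the log2 scale, prl22 rose in G34R (0.45) and G34V (0.31), and prl59 rose in G34V (0.15) and Set2D (0.39). prl68 rose in G34R (0.53) and Set2D (0.68), and prl21 rose in Set2D (0.47). The G34V call of prl22 lay near the threshold (SE 0.12, adjusted p = 0.048 by edgeR). The 5 RNAs prl4, prl12, prl16, prl25 and prl40 were called in none of the 6 comparisons. All of them are under 1 CPM, where estimates are less precise, and the share of all rows called in none is not given here. For prl4, antisense to the spindle checkpoint gene mad2, the estimates were 0.30 (SE 0.12) in G34R, 0.23 (SE 0.14) in G34V and 0.16 (SE 0.13) in Set2D.

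The G34 mutants differed from each other in both directions. Between G34R and G34V, 13 of the 35 RNAs were higher and 3 lower in G34R, beside 25.2% and 25.3% of all rows. The higher ones were led, among RNAs that reach 1 CPM in G34R or G34V, by prl65 (0.80), prl47 (0.78) and prl66 (0.69), and the lower ones were prl15 (-0.31, SE 0.061), prl1 (-0.20, SE 0.04) and prl34 (-0.18, SE 0.068). The call of prl34 was lost without any 1 of the 6 libraries compared. Set2D libraries are not compared here, but they enter the filter, the scaling and the shared estimate of spread. Without Set2D replicate 1 or 3, 5 were lower (26.1% and 25.9% of all rows).

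Between G34R and Set2D, 13 were higher and 12 lower in G34R, beside 34% and 35.4% of all rows, shares close to the background. Between G34V and Set2D, 6 were higher and 12 lower in G34V, beside 29.6% and 32.8%. prl61 made the largest difference in both, at -4.46 (SE 0.066) for G34R and -4.24 (SE 0.07) for G34V against Set2D. The higher RNAs in G34V were led by prl24 (0.66, SE 0.095), prl56 (0.60, SE 0.062) and prl42 (0.45, SE 0.064).

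Among 5 lists of genes that make, mark or degrade noncoding RNAs, log2 fold changes against WT ran from -0.36 to 0.36, apart from set2 in Set2D (-5.04). Of 16 genes of the nuclear exosome and its TRAMP cofactor, none rose and 8 fell in G34R, 3 rose and 3 fell in G34V, and 6 rose and 7 fell in Set2D, beside 26.8% higher and 26.6% lower of all rows in G34R. The same shares were 25.1% higher and 25% lower for G34V, and 34.5% higher and 35.6% lower for Set2D. The counts of the other lists below are to be read against these shares. The median log2 fold changes were -0.07, 0.02 and -0.05 in G34R, G34V and Set2D. rrp41, a core exosome subunit, fell by 0.35 in G34R (SE 0.03) and rose by 0.12 in G34V (SE 0.031). air1, a TRAMP subunit, fell by 0.32 in G34R, 0.11 in G34V and 0.29 in Set2D.

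Of the 7 genes of Set2 and Clr6 complex II, 2 rose and 3 fell in G34R, 2 rose and 1 fell in G34V, and 2 rose and 4 fell in Set2D, set2 among the last. The complex II subunit gene alp13 rose in each mutant, by 0.11 in G34R, 0.19 in G34V and 0.25 in Set2D. prw1, of the same list, fell in each, by 0.09 in G34R, 0.07 in G34V and 0.22 in Set2D. Of 12 tested genes of MTREC and Mmi1, which mark RNAs for the exosome, 3 rose and 5 fell in G34R, 2 rose and 2 fell in G34V, and 2 rose and 4 fell in Set2D. The MTREC scaffold gene red1 rose by 0.20 in G34R, 0.19 in G34V and 0.28 in Set2D. mmi1 fell by 0.17 in G34R and 0.09 in G34V, and rmn1 fell by 0.20 in Set2D.

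Of 18 cleavage and polyadenylation genes, 3 rose and 5 fell in G34R, 1 rose and 5 fell in G34V, and 3 rose and 9 fell in Set2D. In G34R and G34V the share of these genes that fell is near that of all rows. pla1, the poly(A) polymerase gene, fell by 0.31 in Set2D (SE 0.024), to 139 CPM, against 172 CPM in WT. swd22, of the same list, rose by 0.36 in G34R and fell by 0.22 in G34V and 0.36 in Set2D. cft2, also of this list, rose by 0.10 in G34V and 0.17 in Set2D. Of 13 genes of cytoplasmic RNA decay, 2 rose and 4 fell in G34R, 1 rose and 4 fell in G34V, and 3 rose and 7 fell in Set2D. upf3, of nonsense-mediated decay, rose by 0.22 in G34R and 0.20 in G34V. Of the genes that fell, dcp1 fell by 0.18 in G34R, and pop2 by 0.16 in G34V and 0.20 in Set2D. Whether any of these changes bears on the prl RNAs was not tested.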

How the data were processed

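The authors deposited integer read counts per gene, 1 file per library, 12 in all, each with 7018 rows, of which 5 are HTSeq summary rows (23.1 to 26.2% of reads), kept out of library sizes and tests. Per the submitters' processing notes, the tools were CASAVA 1.7, cutadapt, STAR, SAMtools and HTSeq, with build ASM294v2. The sources used here give no counting options.

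Rows were kept with filterByExpr in edgeR 4.0.16 (R 4.3.3), scaled by TMM, with factors between 0.972 and 1.04, and entered into the robust quasi-likelihood F-test in 1 model of all 12 libraries (8 residual degrees of freedom), with Benjamini-Hochberg adjustment over 6602 rows and a threshold of 0.05. A test of the method on simulated data was run first. CPM were computed from the deposited counts. Alternatives were other scalings, filters and thresholds, DESeq2 1.42.0, a test against a fold of 1.2, the 2 groups alone, Set2D replicate 3 halved, and each library left out.

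RNAs named with values were the called ones with the largest change in each direction (up to 5 against WT, 3 between mutants) with at least 1 CPM in 1 group and no overlap of libraries, the 5 highest in WT, those called alike in 3 mutants or oppositely in 2, and their neighbours. In each gene list, up to 2 genes per direction with the lowest adjusted p were eligible. Members, lists and rules were chosen with earlier results of these data known. Names, strands and lengths came from RefSeq build ASM294v3. Copies were sought with blastn 2.17.0.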

Additional observations from a re-analysis of the deposited data

How the results depend on the processing

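No paired analysis was possible because no label numbers the replicates or ties libraries of different groups together. Replicate numbers here follow accession order and only name a library. Tested against a fold of 1.2, the prl RNAs called higher were 10 in G34R (6.68% of all rows were) and 2 in G34V (5.98%) against WT, 5 in G34R against G34V (3.42%) and 3 in G34V against Set2D (6.09%). Those called lower were 0 in G34V (2.01%) and 3 in Set2D (8.13%) against WT, 0 in G34R against G34V (2.65%) and 6 in G34R against Set2D (12.8%). The share of all rows called falls under this test as well. At a threshold of 0.01, 6 were higher (18.9% of all rows) and 2 lower (17.3%) in G34V against WT. With upper quartile factors and with DESeq2, 5 each were lower in G34R against G34V (28.6% and 26.5% of all rows). With at least 1 CPM required in 6 libraries, fewer rows were tested. Against Set2D, 7 were then lower in G34R (35.9% of all rows) and 6 in G34V (33.7%). The cause of the other shifts was not tested. With each library left out in turn, the prl counts against WT were 15 to 17 higher and 0 to 1 lower in G34R. They were 7 to 11 and 2 to 5 in G34V, and 13 to 17 and 6 to 7 in Set2D. The shares of all rows were 22.8 to 27.7% higher and 22.3 to 27.3% lower in G34R. They were 22 to 25.6% and 20.9 to 25.8% in G34V, and 33.1 to 35.6% and 32.5 to 35.6% in Set2D. Between mutants, the prl counts were 10 to 13 higher and 2 to 5 lower in G34R against G34V. They were 11 to 14 and 11 to 12 in G34R against Set2D, and 5 to 7 and 11 to 12 in G34V against Set2D. The shares of all rows were 20.8 to 25.7% higher and 20.8 to 26.1% lower in G34R against G34V. They were 31.6 to 34.2% and 32.9 to 36.6% in G34R against Set2D, and 27 to 29.6% and 30.4 to 33.3% in G34V against Set2D. Of 99 called values of named RNAs, 51 were kept under every alternative, none reversed, and 126 of 2258 alternative values passed no more, 46 of them under the fold of 1.2. Scaling moved the median of all rows by at most 0.06 on the log2 scale. Depth limits the 14 RNAs under 1 CPM most, where a library's value rests on few counts.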
